A study of Mus musculus with 6 samples.

Results

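The genes described here are 10 beta-catenin target and Wnt feedback genes, Axin2, Nkd1, Nkd2, Lgr5, Lgr6, Rnf43, Znrf3, Notum, Tcf7 and Lef1. They were chosen by symbol from the 27179 genes of a mouse RNA sequencing count table, and all 10 were found. Of these, 9 passed a filter on low counts and were tested, and Lef1 did not pass.

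The libraries came from cancer-associated fibroblasts (CAFs), the fibroblasts of a tumor, which were sorted by flow cytometry from 3 mammary tumors of raGFP-Wnt1 mice. GFP-positive CAFs of each tumor were divided by the surface protein CD34, which gave 3 CD34 negative and 3 CD34 positive libraries. Both groups carry the same alleles, namely a Pdgfra H2B-GFP reporter (C57BL/6 strain), which puts a nuclear green fluorescent protein under the fibroblast gene Pdgfra, and an MMTV-Wnt1 transgene (FVB/NJ strain), whose viral promoter drives Wnt1 in the mammary epithelium. The mice were female, no drug was named, and the age at collection is not given in the sources used here. Libraries are named by fraction and tumor number, so that negative library 1 and positive library 1 come from the same tumor.

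Wnt proteins bind Frizzled receptors with an LRP co-receptor, which stops the destruction complex and lets beta-catenin enter the nucleus, where it acts with TCF/LEF factors. Among the genes that are switched on, several act back on the pathway. Some feed back to dampen it, others help receive R-spondin signals or transcribe further targets, and Axin2 is widely used as a readout of the pathway.

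The libraries held between 16238059 and 86609267 counts and between 14314 and 19220 genes with at least 1 count, with negative library 3 at the lower end for genes. Cd34 was at 74.3 ± 30.2 CPM, counts relative to library size (SD, n = 3), in CD34 negative and 948 ± 571 in CD34 positive CAFs, a log2 difference of -3.63 (limma-voom adjusted p = 0.0414), and Pdgfra was at 385 ± 83.1 and 428 ± 85.8 CPM. Fibroblast marker sums were between 67651 and 93742 CPM in every library, mostly from Col1a1, Col1a2 and Col3a1. In limma-voom with the tumor as a block, 4 of these 7 markers were not called. Dcn (2923 against 6365 CPM, adjusted p = 0.00154) and Lum (1364 against 2345 CPM, adjusted p = 0.0140) were lower in CD34 negative CAFs. Pdgfrb was higher there (688 against 368 CPM, adjusted p = 0.00714). Summed epithelial markers were at 72.8 to 182 CPM in the negative and 26.2 to 163 in the positive libraries, with the negative library higher in each tumor (182 against 163, 160 against 111 and 72.8 against 26.2 CPM in tumors 1, 2 and 3). All 8 epithelial markers had a positive log2 fold change (smallest limma-voom adjusted p = 0.391 without and 0.0907 with the block). Summed leukocyte markers, without those of T lymphocytes, stayed under 10 CPM in all 6. The summed pericyte markers Rgs5, Cspg4, Mcam, Notch3 and Kcnj8 were at 184 to 228 CPM in the negative against 46.5 to 100 in the positive libraries, with none at 0, whereas the summed endothelial markers were at 10.4 to 29.6 against 55.2 to 122 CPM. In the positive libraries most of the endothelial sum was Tek (mean of 76.7 CPM, against 8.46 in the negative libraries). In negative libraries 1, 2 and 3 Tek was at 13.4, 6.53 and 5.45 CPM, of sums of 29.6, 13.5 and 10.4 CPM. Emcn was at 0 in negative library 3 and in positive libraries 2 and 3, and Cdh5 was at 0 in positive library 3. The part of these other cell types in the differences below was not tested. In bulk samples, fewer cells that express a gene and less RNA per cell cannot be told apart.

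The upstream regions shown first belong to the genes on which the account turns: Nkd2, the member with the clearest difference, Axin2, the common readout, and the single member region with a TCF/LEF match. They are the 250 bases before a RefSeq transcript start (GRCm38.p6), written 5′ to 3′ on the strand of the gene, and a match is in capitals.
Nkd2, chr13:73847632-73847881, minus strand: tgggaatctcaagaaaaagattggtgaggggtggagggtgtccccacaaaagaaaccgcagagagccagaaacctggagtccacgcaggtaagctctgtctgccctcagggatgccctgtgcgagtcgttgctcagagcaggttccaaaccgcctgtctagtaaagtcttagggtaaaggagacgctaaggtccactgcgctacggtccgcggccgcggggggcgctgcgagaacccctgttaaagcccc
Axin2, chr11:108920099-108920348, plus strand: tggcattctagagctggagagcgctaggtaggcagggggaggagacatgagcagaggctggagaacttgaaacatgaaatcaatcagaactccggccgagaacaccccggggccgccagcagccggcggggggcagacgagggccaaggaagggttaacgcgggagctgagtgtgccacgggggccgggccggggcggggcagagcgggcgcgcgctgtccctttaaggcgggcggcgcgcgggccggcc
Lef1, chr3:131156044-131156293, plus strand: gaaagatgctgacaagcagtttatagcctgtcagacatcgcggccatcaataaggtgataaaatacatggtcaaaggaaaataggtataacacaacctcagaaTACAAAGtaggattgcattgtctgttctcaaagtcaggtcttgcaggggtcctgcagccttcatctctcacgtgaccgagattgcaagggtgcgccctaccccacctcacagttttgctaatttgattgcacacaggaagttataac
The motif searched was CTTTG followed by 2 bases, each A or T, on both strands. It was present in 4874 of all 32851 windows of this length (14.8%) and in 1 of the 12 windows of the 7 members that had any, namely the 4th start of Lef1, as TACAAAG at position -147 from the start. The Nkd2 and Axin2 windows held no such match, which describes the 250 bases alone. The Lef1 window shown lies inside the span of its gene (chr3:131110297-131224357). So does the Axin2 window (gene span chr11:108917828-108950783). Lgr5, Znrf3 and Notum had no entry in the table.

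The first question was whether the feedback genes differ between the fractions. Fold changes are CD34 negative over CD34 positive on the log2 scale, so positive values are higher in CD34 negative CAFs. In limma-voom with no term for the tumor, 0 of the 9 tested members were called at an adjusted p under 0.05, while 18 of 14855 genes (0.121%) were, 0.0202% higher and 0.101% lower in CD34 negative CAFs. At an unadjusted p under 0.05 there were 2 members, Nkd2 and Lgr5, beside 2128 genes (14.3%). Of the other tools with no term for the tumor, edgeR called 0 members (0.0606% of all genes) and DESeq2 called Nkd2 (4.7% of all genes). With the tumor as a block, which compares the 2 fractions within each tumor, 1 member of 9, Nkd2, was called higher, against 642 genes called higher (4.32%) and 1273 called in either direction (8.57%). With the tumor taken into account, edgeR (3.87% of genes called), DESeq2 (11.7%) and limma-voom with a random effect (4.73%) likewise called Nkd2 and no other member. The median log2 fold change was 0.45 over the 9 tested members and -0.03 over all tested genes, with 7 members above 0 and 2 below.

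The 3 libraries of each fraction did not overlap in 4 of the 10 members, Nkd1, Nkd2, Lgr5 and Lef1, all higher in CD34 negative CAFs. Among the tested genes this was so for 3 of 9 members and for 10.4% of all genes. Within tumors, 5 of 9 members (Axin2, Nkd1, Nkd2, Lgr5 and Tcf7) were above 0 in 3 of 3 tumors, against 22.8% of all tested genes, and 0 of 9 were below 0 in every tumor, against 23.4%.

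**Figure D1:**
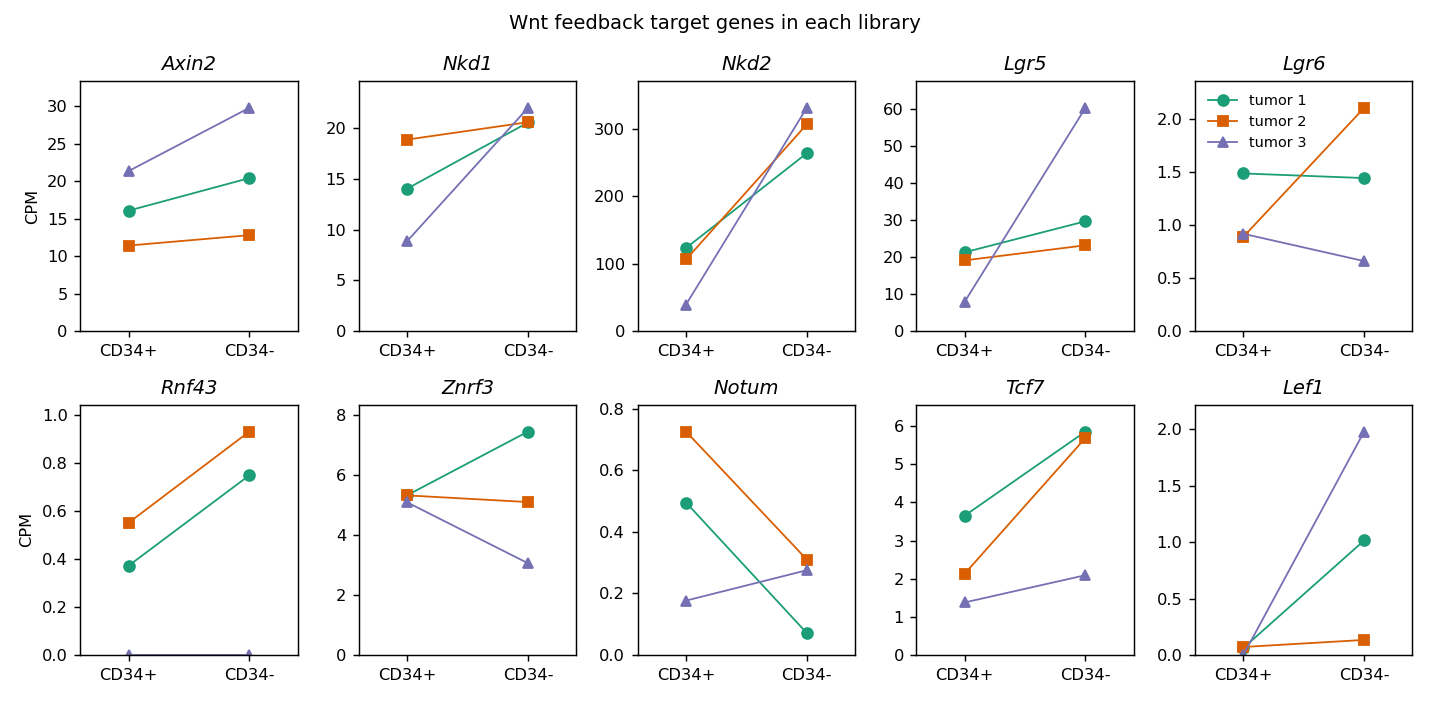
CPM of the 10 members in CD34 positive (left) and CD34 negative (right) libraries, each gene on its own linear axis from 0. Points are single libraries, and lines join the 2 fractions of a tumor. Nkd2 lies at 264 to 331 CPM in CD34 negative and 39.4 to 123 in CD34 positive libraries, and Axin2 keeps the same order of tumors in both fractions.

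Levels between genes were compared per kilobase of the gene length in the table, as means over the 6 libraries. Nkd2 led with 60.5 CPM per kilobase, above 92.8% of tested genes, and next came Lgr5 with 5.71, Axin2 with 4.38 and Nkd1 with 3.92. Tcf7 was at 1.55 and Znrf3 at 0.827. Lgr6 at 0.345, Lef1 at 0.221, Notum at 0.169 and Rnf43 at 0.10 were the least abundant. The ranges over libraries of neighbours in this order overlapped throughout, so the order rests on means, although Nkd2 was above Lgr5 in each of the 6 libraries. In CD34 positive CAFs Axin2 came before Lgr5, at 3.83 against 3.42 CPM per kilobase.

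Axin2 (gene ID 12006, chr11:108917828-108950783, plus strand, protein-coding) encodes a scaffold of the destruction complex and is the best known feedback inhibitor. Its level was 20.4, 12.8 and 29.8 CPM in negative libraries 1, 2 and 3, and 16.1, 11.4 and 21.4 CPM in positive libraries 1, 2 and 3. The groups overlapped, and tumor 3 was highest and tumor 2 lowest in both fractions. The means were 21.0 ± 8.51 and 16.3 ± 4.97 CPM (SD, n = 3 each), a log2 fold change of 0.44 ± 0.37 (SE, 95% interval -0.40 to 1.27, limma-voom adjusted p = 0.627). Within tumors 1, 2 and 3 the log2 ratio was 0.34, 0.17 and 0.48, smaller than the range between tumors of 1.22 among negative and 0.90 among positive libraries. The block gave 0.33 ± 0.20 (95% interval -0.12 to 0.78, adjusted p = 0.376), so a difference in Axin2 was not detectable with these libraries and the interval leaves room for one of up to 0.78 on the log2 scale.

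Genes with the pattern most like Axin2 were found by the mean absolute difference of log2 CPM, each gene centred on its own mean over the 6 libraries. Candidates were the 8943 tested genes whose log2 CPM averaged 3 or more, and the 5 nearest were Tmem170b (0.0932), Gpatch8 (0.112), Stat5a (0.120), Zfp142 (0.123) and Pan2 (0.129). No other feedback gene was near, since Nkd1, the closest of them, lay at 0.552, followed by Znrf3 at 0.580 and Lgr5 at 0.592, while Nkd2 lay at 0.813.

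Nkd1 and Nkd2 encode the Naked cuticle proteins, which bind Dishevelled and dampen Wnt signals. Nkd2 (gene ID 72293, chr13:73818534-73847631, minus strand, protein-coding) was at 264, 307 and 331 CPM in negative libraries 1, 2 and 3. It was at 123, 106 and 39.4 CPM in positive libraries 1, 2 and 3, from 1991, 9080 and 1118 counts. Every negative library was above every positive one, and the lowest value was that of tumor 3, whose negative library was the highest. In RefSeq the span of Nkd2 overlaps the long noncoding RNA gene Gm30303 and the pseudogene Gm8062, which have no entry in the count table. The part of their reads in the Nkd2 counts was not tested.

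The Nkd2 means were 300.4 ± 34.1 and 89.7 ± 44.3 CPM (SD, n = 3 each). This gave a log2 fold change of 1.94 ± 0.40 (SE, 95% interval 1.03 to 2.85), or 3.83-fold (limma-voom adjusted p = 0.0906). Within tumors 1, 2 and 3 the log2 ratio was 1.10, 1.53 and 3.07, and with the tumor as a block Nkd2 rose in CD34 negative CAFs by 1.88 ± 0.30 (95% interval 1.21 to 2.55, adjusted p = 0.00615). The size depended on tumor 3, without which the log2 fold change was 1.29. With the block on tumors 1 and 2 alone it was 1.31 and was still called. Leaving out positive library 3 alone gave 1.39. The summed pericyte markers and Nkd2 were both higher in every negative than in every positive library, and the part of pericytes in this difference was not tested. Of the 5 pericyte markers Cspg4 (1.83), Mcam (2.33) and Notch3 (1.65, log2 fold changes) were called higher with the block and Kcnj8 (-1.96) lower, and Rgs5 was at 6.16 and 0.818 CPM (adjusted p = 0.0803, limma-voom with the block).

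Nkd1 (gene ID 93960, chr8:88521342-88594887, plus strand, protein-coding) was at 20.6, 20.6 and 22.0 CPM in negative libraries 1, 2 and 3, and at 14.1, 18.9 and 8.89 CPM in positive libraries 1, 2 and 3. The groups did not overlap, but positive library 2 came close to the negative libraries. The log2 fold change was 0.52 ± 0.28 (SE, adjusted p = 0.450), and 0.50 ± 0.25 with the block (adjusted p = 0.284, 95% interval -0.07 to 1.07). Within tumors it was 0.55, 0.13 and 1.31.

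Per kilobase, the ratio of Nkd2 to Nkd1 was 17.7, 20.6 and 20.8 in negative libraries 1, 2 and 3, and 12.1, 7.79 and 6.14 in positive libraries 1, 2 and 3. The ratios did not overlap, with a mean of 19.7 ± 1.71 against 8.69 ± 3.10 (SD, n = 3 each), a log2 difference of 1.24. An exact two-sided permutation test that took the libraries as unpaired gave p = 0.1, the smallest that 3 against 3 libraries allow. This value follows from the lack of overlap and adds nothing to it. Nkd2 made up 75.1%, 81.2% and 73.4% of the summed CPM of the 10 members in negative libraries 1, 2 and 3, and 66.2%, 64.3% and 46.3% in the positive ones. Without Nkd2 the sum was 87.2, 70.9 and 120 CPM in the negative and 62.8, 59.1 and 45.8 CPM in the positive libraries, which still did not overlap. The longest run of bases shared by any annotated transcripts of the pair was 20 bases, agaaaccactacctagacct, in the coding sequence of both.

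**Figure D2:**
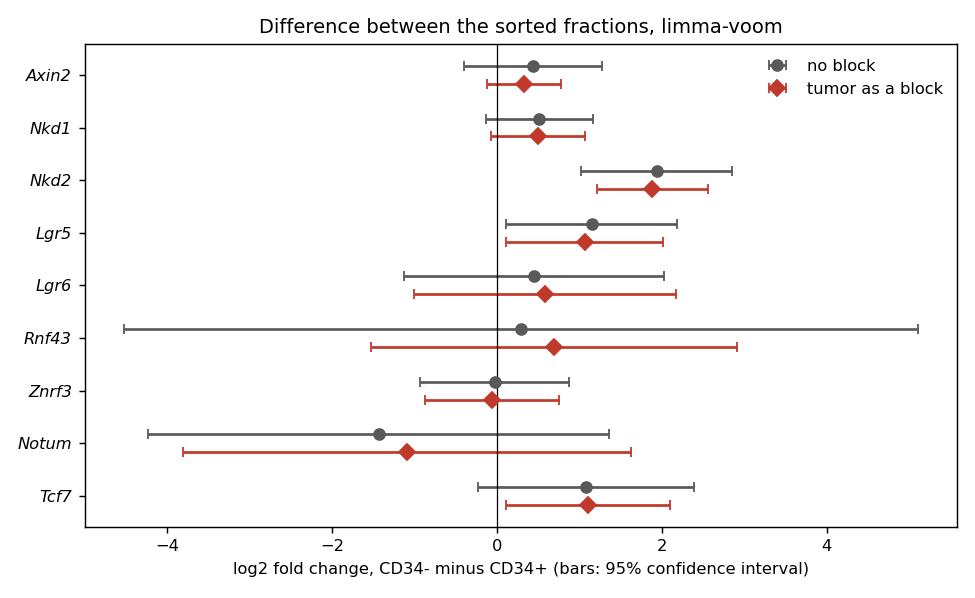
Log2 fold change of each tested member, CD34 negative over CD34 positive, with 95% intervals from limma-voom without (circles) and with (diamonds) the tumor as a block. The intervals of Nkd2 lie above 0 in both fits, at 1.03 to 2.85 and 1.21 to 2.55, and those of Axin2 include 0 in both.

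Lgr5 and Lgr6 encode receptors for R-spondins, secreted proteins that raise the amount of Frizzled at the membrane, and Lgr5 marks stem cells in several epithelia. Lgr5 (gene ID 14160, chr10:115450314-115587780, minus strand, protein-coding) was at 29.7, 23.2 and 60.3 CPM in negative libraries 1, 2 and 3 and at 21.3, 19.1 and 7.97 CPM in positive libraries 1, 2 and 3. The groups did not overlap, and tumor 3 held both the highest and the lowest value. The log2 fold change was 1.15 ± 0.45 (SE, 95% interval 0.11 to 2.18, unadjusted p = 0.0334 and adjusted p = 0.306, limma-voom). The log2 ratios within tumors 1, 2 and 3 were 0.48, 0.28 and 2.92. With the block it was 1.07 ± 0.42 (adjusted p = 0.166). Without tumor 3 it was 0.40, or 0.34 with the block. Without tumor 2 it was 1.83, or 1.85 with the block, where it passed the test (limma-voom adjusted p = 0.000115). That blocked fit held tumors 1 and 3 alone, with unlike ratios of 0.48 and 2.92, so its p-value rests on the spread of other genes as well. The ratio of the epithelial marker sums of the 2 fractions was also largest in tumor 3, and its part in the Lgr5 and Nkd2 values was not tested. In negative libraries 1, 2 and 3 that sum was 182, 160 and 72.8 CPM, beside Lgr5 at 29.7, 23.2 and 60.3 CPM. In positive libraries 1, 2 and 3 it was 163, 111 and 26.2 CPM, beside Lgr5 at 21.3, 19.1 and 7.97 CPM.

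Lgr6 (gene ID 329252, chr1:134983300-135105374, minus strand, protein-coding) was low, at 1.44, 2.10 and 0.660 CPM in negative and 1.49, 0.890 and 0.917 CPM in positive libraries 1, 2 and 3. The groups overlapped, and the log2 fold change of 0.45 ± 0.69 (SE, adjusted p = 0.803) had ratios of -0.06, 1.24 and -0.47 within tumors. Its sign rested on tumor 2, without which it was -0.06. The longest run shared by transcripts of Lgr5 and Lgr6 was 18 bases, gacctcagtatgaacaac.

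Rnf43 and Znrf3 encode membrane ubiquitin ligases that remove Frizzled receptors, and R-spondins with their LGR receptors counteract them. Znrf3 (gene ID 407821, chr11:5276329-5444847, minus strand, protein-coding) was at 7.44, 5.09 and 3.05 CPM in negative and 5.32, 5.31 and 5.08 CPM in positive libraries 1, 2 and 3. The positive libraries lay close together, with negative library 1 above them, negative library 3 below and negative library 2 among them. The log2 fold change was -0.03 ± 0.39 (SE, 95% interval -0.93 to 0.87, adjusted p = 0.983), with within-tumor ratios of 0.48, -0.06 and -0.73.

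Rnf43 (gene ID 207742, chr11:87663087-87735539, plus strand, protein-coding) had 42, 42 and 0 counts in negative and 6, 47 and 0 counts in positive libraries 1, 2 and 3. Both fractions of tumor 3 were at 0, which allows up to 0.0850 CPM in the negative and 0.110 CPM in the positive library at 3 counts, a limit that covers counting error only. The log2 fold change was 0.29 ± 2.10 (SE, adjusted p = 0.965), and its interval of -4.52 to 5.10 gives no bound of use. Rnf43 and Znrf3 shared a run of at most 20 bases, tccaccttccgaagctccct.

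Notum (gene ID 77583, chr11:120653788-120661193, minus strand, protein-coding) encodes a secreted enzyme that strips the lipid from Wnt proteins. It had 4, 14 and 10 counts in negative and 8, 62 and 5 counts in positive libraries 1, 2 and 3, or 0.0712 to 0.310 and 0.176 to 0.726 CPM. The groups overlapped, and the log2 fold change of -1.43 ± 1.22 (SE) had an adjusted p of 0.631 in limma-voom.

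Tcf7 and Lef1 encode DNA-binding partners of beta-catenin. Tcf7 (gene ID 21414, chr11:52246527-52283383, minus strand, protein-coding) was at 5.86, 5.69 and 2.09 CPM in negative and 3.65, 2.13 and 1.38 CPM in positive libraries 1, 2 and 3. Negative library 3 lay below positive libraries 1 and 2, yet in each tumor the negative fraction was the higher one, with log2 ratios of 0.67, 1.42 and 0.59. The log2 fold change was 1.08 ± 0.57 (SE, adjusted p = 0.436), and 1.11 ± 0.44 with the block (95% interval 0.11 to 2.10, adjusted p = 0.169). Its span overlaps that of the far more abundant Skp1 by 332 bases in RefSeq, at the ends of both spans. No exons overlap in GENCODE, but the counts are per NCBI gene and the kit does not mark strand. The part of Skp1 reads in the Tcf7 counts was not tested. T lymphocytes also express Tcf7 and Lef1, and the summed T lymphocyte markers were at 0.285 to 1.86 CPM in the negative against 1.49 to 6.22 in the positive libraries, with 4 of 5 markers at 0 in both libraries of tumor 3. Most of that sum was Cd3e, at a mean of 1.02 and 3.55 CPM. The sort selected cells with GFP from Pdgfra, which T lymphocytes and endothelial cells should lack, and a gate against leukocyte or endothelial surface proteins is not given for these CAFs in the sources used here.

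Lef1 (gene ID 16842, chr3:131110297-131224357, plus strand, protein-coding) had 57, 6 and 72 counts in negative libraries 1, 2 and 3 and 1, 6 and 0 counts in positive libraries 1, 2 and 3. In CPM this was 1.01, 0.133 and 1.98 against 0.0619, 0.0702 and 0. The groups did not overlap, and negative library 2 lay close to its positive partner. Lef1 was below the filter on low counts. When the filter was dropped, the limma-voom adjusted p was 0.288 without and 0.124 with the block. Tcf7 and Lef1 shared a run of at most 17 bases, atcaaccagatcctggg.

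**Figure D3:**
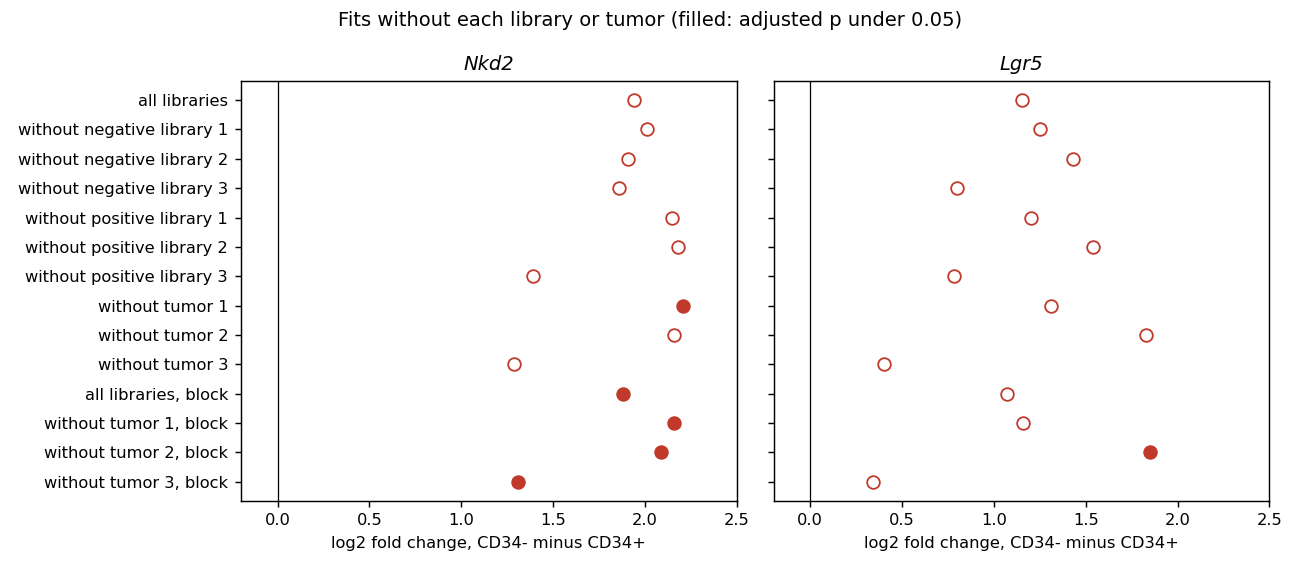
Log2 fold change of Nkd2 and Lgr5 with all libraries and with each tumor or library left out, CD34 negative over CD34 positive, filled where the adjusted p was under 0.05. The value of Nkd2 stays above 0 with a lowest value of 1.29 without tumor 3. Without the same tumor the value of Lgr5 drops to 0.40, or 0.34 with the block.

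The other genes of the pathway were taken from lists of 78 genes, of which 66 were tested. Without the block limma-voom called 0 of them (22 had an unadjusted p under 0.05, beside 14.3% of all genes), edgeR called 0 (0.0606%) and DESeq2 called 10 (4.7%). With the block, in limma-voom and edgeR alike, 6 were called higher and 5 lower in CD34 negative CAFs. Of all 14855 tested genes, limma-voom with the block called 4.32% higher and 4.25% lower, and edgeR with the block called 262 higher and 313 lower. The pathway genes are ordered by role. Parentheses give mean CPM in CD34 negative against CD34 positive CAFs, the log2 fold change without the block, and the adjusted p of limma-voom with the block.

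R-spondins, the ligands of Lgr5 and Lgr6, were scarce. Of the 4 genes 3 were tested, all with a negative log2 fold change without the block (median -2.19). With the block limma-voom and edgeR called 0 of them (1 had an unadjusted p under 0.05) and DESeq2 called Rspo2 lower. Rspo1 changed sign, from -0.19 without to 0.25 with the block in limma-voom. Its log2 ratios within tumors 1, 2 and 3 were 0.70, 0.37 and -3.59. Rspo2 was at 0.427, 0.266 and 0.358 CPM in negative and 2.72, 1.49 and 1.52 CPM in positive libraries 1, 2 and 3, without overlap (log2 fold change -2.19, adjusted p = 0.133). Rspo3 had 30, 24 and 0 counts against 24, 177 and 34 (-3.23, adjusted p = 0.240). Rspo4 was not tested, with 5, 2 and 70 counts in negative libraries 1, 2 and 3 and 0 in every positive library.

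Of 19 Wnt ligands 12 were tested, with a median log2 fold change of -0.68, 2 called higher and 1 lower. Wnt9a (191 against 82.3 CPM, 1.27, adjusted p = 0.00272) and Wnt11 (75.0 against 30.9 CPM, 1.24, adjusted p = 0.00222) were higher and Wnt2 (45.3 against 72.3 CPM, -0.80, adjusted p = 0.0214) was lower in CD34 negative CAFs. With the tumor as a random effect Wnt9a and Wnt11 were still called and Wnt2 was not (adjusted p = 0.143 with an estimated correlation). Wnt1 itself, the gene of the transgene, had 146, 114 and 13 counts in negative and 16, 147 and 38 counts in positive libraries 1, 2 and 3. The log2 fold change of Wnt1 was 0.02, and reads of the transgene and of the native gene cannot be told apart here.

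Receptors and co-receptors showed the most calls, 4 higher and 2 lower of 16 tested. Frizzled receptor genes went both ways, with Fzd1 (565 ± 38.4 against 262 ± 83.0 CPM, 1.18 ± 0.27, adjusted p = 0.00615) and Fzd2 (62.6 against 38.5 CPM, 0.69, adjusted p = 0.0176) higher and Fzd4 (8.52 against 28.2 CPM, -1.64 ± 0.36, adjusted p = 0.00233) lower in CD34 negative CAFs. The co-receptor gene Lrp5 (97.3 against 57.4 CPM, 0.78, adjusted p = 0.0129) and Ptk7, which encodes a co-receptor of noncanonical Wnt signals (293 against 109 CPM, 1.52 ± 0.32, adjusted p = 0.00290), were higher. Lgr4, the family member of Lgr5 and Lgr6, was lower (16.7 against 32.7 CPM, -1.14, adjusted p = 0.0129), a call that was lost with the tumor as a random effect (adjusted p = 0.0603 with an estimated correlation), while the other 5 receptor calls held. Endothelial cells express Fzd4. Of the endothelial markers, Tek, Kdr (3.51 against 7.17 CPM) and Pecam1 (3.15 against 5.53 CPM) also had lower means in CD34 negative CAFs. Cdh5 (1.97 against 0.751 CPM) and Emcn (0.775 against 0.186 CPM) had higher means there. The part of such cells was not tested.

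Core components in the cytoplasm and nucleus gave 0 calls with the block in limma-voom and edgeR, and DESeq2 called only Dvl3. At an unadjusted limma-voom p under 0.05 with the block there were 2 of 16 and 3 of 12 genes, beside 23.3% of all genes. Of 16 Dishevelled and destruction complex genes, all tested, the median log2 fold change was 0.05, and those of the largest size were Apc2 with 0.74 (adjusted p = 0.594) and Dvl3 with 0.60 (adjusted p = 0.0750). Ctnnb1, which encodes beta-catenin, was at 462 and 450 CPM. Of 12 nuclear partners the median was 0.12, and Pygo2, a coactivator of beta-catenin (0.51, adjusted p = 0.153) and Tcf7l1, a further TCF factor (-0.48, adjusted p = 0.142) were the largest.

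Of 10 other reported beta-catenin targets 7 were tested, with a median of 0.22, and 2 were called, both lower in CD34 negative CAFs. Myc, a growth regulator, was at 240 against 455 CPM (-0.95 ± 0.20, adjusted p = 0.00380) and Cd44, a hyaluronan receptor gene, at 298 against 520 CPM (-0.79, adjusted p = 0.00853). Nkd2 and these 2 targets were therefore called in opposite directions in the same fit.

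**Figure D4:**
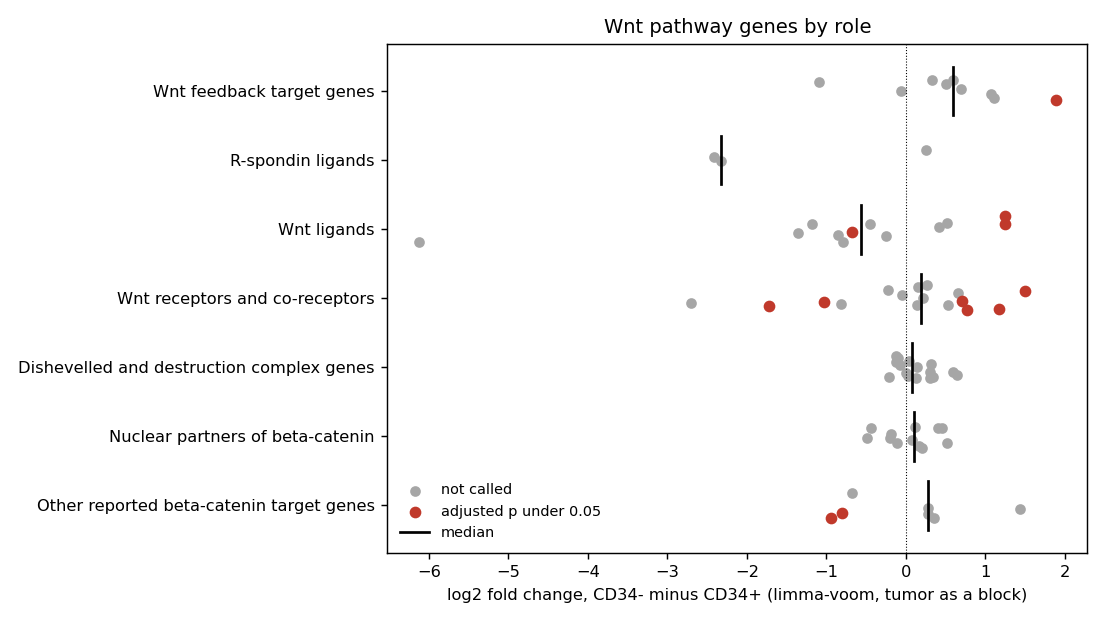
Log2 fold change of the tested genes of each Wnt pathway list and of the members in limma-voom with the tumor as a block, CD34 negative over CD34 positive, with list medians as lines. Red points mark called genes, 1 member, 6 other genes that were higher and 5 that were lower.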

How the data were processed

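RNA sequencing was done on GFP-positive CAFs sorted as CD34 negative or CD34 positive from 3 raGFP-Wnt1 tumors. The deposited values are raw counts per NCBI gene, which the authors made with featureCounts of Rsubread on GRCm38/mm10, without normalization or pooling. Strand, read length and handling of multiple matches are not given in the sources used here, and the kit does not mark strand. The gene length in the deposited table has the unit bases and served levels per kilobase only. Total counts were between 16238059 and 86609267 per library.

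Counts were filtered with filterByExpr (minimum count 10), scaled by TMM and compared with limma-voom, two-sided, with Benjamini-Hochberg adjustment over 14855 genes (R 4.3.3, edgeR 4.0.16, limma 3.58.1). The study's methods name these steps and do not say whether the tumor was in the model, and the main fit had no term for it. The main fit called 3 genes higher in CD34 negative CAFs and the blocked fit 642. The paper's set of such genes is larger than 3, so the main fit does not reproduce it. The fit was checked on simulated data. CPM use the library total times the TMM factor. Whether the 3 tumors came from separate mice is not given in the sources used here. The p-values without the block therefore measure the spread between these libraries. Those with the block measure the spread of the differences within these tumors.

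The labels pair the fractions by tumor. Deviations from the group means correlated at 0.373, 0.350 and 0.219 in tumors 1, 2 and 3, so the blocked fit stands beside the main one. Alternatives were other scalings and filters, edgeR, DESeq2 1.42.0, limma-trend, quality weights, thinning and leaving out libraries or tumors.

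The members and gene lists were chosen with earlier results of these data known. Named were all members, pathway genes called with or without the block or otherwise the 2 tested genes of a list with the largest fold change, the 5 genes nearest to Axin2, Cd34, Pdgfra, and marker genes beside a result. Ctnnb1, Wnt1, Rspo1, Rspo4 and Skp1 were named outside this rule after their values were seen, and Gm30303 and Gm8062 for their overlap with Nkd2. Positions and promoters are from RefSeq GRCm38.p6, and exons from GENCODE.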

Additional observations from a re-analysis of the deposited data

How the results depend on the processing

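Nkd2 was called in 10 of 10 alternative fits with the replicate block and in 2 of 20 without it at 0.05, or 3 counting the threshold of 0.1, with adjusted p between 2.15e-14 and 0.312, and Lgr5 only in the blocked fit without tumor 2. Without the block, DESeq2 called 698 genes, 1 member and 10 other pathway genes, library totals alone 32 genes, edgeR 9, and quality weights 161 with 3 pathway genes. A threshold of 0.1 gave 218 genes, 1 member and 4 pathway genes. With the replicate block, limma-voom called 1273 genes, 1 member and 11 pathway genes, edgeR 575, 1 and 11, DESeq2 1733, 1 and 17, the tumor as a random effect 703, 1 and 9, and thinned counts 1176, 1 and 14. Added after seeing the data, the block without the filter gave 802, 1 and 11, and with library totals alone 1170, 1 and 11.

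Leaving out a library gave 0 to 34 genes and 0 members. Leaving out a tumor gave 0 to 86 genes, 0 to 1 members and 0 to 1 pathway genes, and with the block 1134, 851 and 2019 genes without tumors 1, 2 and 3, 1 to 2 members and 8 to 18 pathway genes. The limma-voom fits with 0 calls were those without negative library 3 or positive library 2 and those without tumor 2 or 3, where 2217, 1555, 1123 and 1641 genes had an unadjusted p under 0.05. Where a library was left out, its fraction kept 2 libraries, and no other tool was run.

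Znrf3, Rnf43 and Lgr6 turned sign. Znrf3 was at 0.13 with quality weights, 0.13 thinned and 0.29 thinned with the block. With 1 library left out it was -0.38 to 0.25, Rnf43 -1.01 to 1.99 and Lgr6 0.11 to 0.81. With 1 tumor left out Znrf3 was -0.36 to 0.22 (block -0.24 to 0.13), Rnf43 -0.46 to 0.70 and Lgr6 -0.06 to 0.74 (block -0.23 to 0.87). Axin2 ranged from 0.02, without positive library 2, to 0.74, and was called in none of these fits. The causes were not tested. Nkd1, Nkd2, Lgr5, Tcf7 and Axin2 stayed above 0 and Notum below 0 in every fit that tested them. Counts near 0 limit Rnf43, Notum and Lef1.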
